A study of Macaca fascicularis with 2 samples.

Results

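Complement components and their regulators were described in single cells of articular cartilage (AC) and of the nucleus pulposus (NP), the gelatinous core of the intervertebral disc, of cynomolgus monkeys. The genes were chosen by name, as *C1R*, *C1S*, *C3*, *CFD*, *CFB*, *CFI*, *CD55*, *CD59* and *SERPING1*, and 4 of these 9 (*C1S*, *CFI*, *CD55* and *SERPING1*) were among the 21371 genes of the count table. The other 5 (*C1R*, *C3*, *CFD*, *CFB* and *CD59*) have no row in that table and were not analysed here. The 9 genes, and the gene lists used below, were chosen with earlier results of these data known.

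The animals were wild-type males, 3 years old, and no treatment is listed. AC and NP cells were freed with Liberase, a blend of collagenases, and DNase, marked with 1 of 4 oligonucleotide tags (A951, A952, A953 and A954), sorted as live cells, and pooled into 1 library made by TAS-seq, in which the cDNA of each cell is captured on a barcoded bead and amplified. According to the labels the pool was made of 3 tissue samples, which they do not pair with the 4 tags, so tags were kept apart as 4 sets of cells of unnamed tissue. The library held 1354369622 reads in 5723 cells, and 5653 cells were kept, with 24907 to 1290096 reads each and a median of 198432 reads and 3827 genes.

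The complement system is a cascade of plasma proteins that marks microbes and damaged cells and can end in pores in their membranes. *C1S* encodes a protease of the C1 complex, which starts the classical pathway, and *SERPING1* encodes the C1 inhibitor that inactivates it. *CFI* encodes factor I, a protease that cuts and inactivates C3b and C4b, and *CD55* encodes decay-accelerating factor, a membrane protein that takes the C3 convertases apart and so shields the cell that carries it. Most plasma complement comes from the liver, but connective tissue cells also make several of these proteins.

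Cells were placed in 3 groups by genes outside the complement system. Notochordal cells, the remnants of the embryonic notochord in the young NP, were those with 5 or more reads of both *KRT19* and *TBXT*, and there were 310 of them. They lay mostly in 2 tags, with 67 cells in A951, 236 in A952, 5 in A953 and 2 in A954. ASPN/CILP+ cells had 100 or more reads per 1000000 (rpm) of both *ASPN* and *CILP*, which encode matrix proteins of cartilage, and numbered 660 (36, 38, 220 and 366 in A951 to A954). The remaining 4683 cells are called other cells (892, 851, 1152 and 1788), and no cell met both rules.

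The names of the groups were checked against further markers. The notochordal markers *CDH2*, *NCAM1*, *SRGN*, *NRN1*, *C3orf49* and *APOE* summed to 15054 rpm in notochordal cells, 49.5 rpm in ASPN/CILP+ cells and 223 rpm in other cells. The chondrocyte markers, which include *COL2A1* and *ACAN*, summed to 17777, 19887 and 35292 rpm in the same order. That sum hides opposite directions in notochordal cells, where *ACAN* (14440 against 4268 rpm in other cells) and *SOX9* were higher and the other 4 markers lower by 2-fold or more, with *COL2A1* at 1269 against 21617 rpm. Markers of cells that make complement in other organs were low. The hepatocyte markers *ALB*, *APOB* and *TTR* summed to 1.44, 1.77 and 1.51 rpm, and 7 leukocyte markers to 23.8, 25.4 and 21.8 rpm. Of the leukocyte sum, *CD68* was the most abundant gene in each group, and *PTPRC*, the general marker of leukocytes, was at 1.3, 0.402 and 0.758 rpm, with *AIF1* at 0, 0.0194 and 0.165 rpm. Of the same list *LYZ* (5.21 against 0.831 rpm) and *CD14* (7.46 against 2.92 rpm) were higher in notochordal than in other cells, with 5 or more reads of *LYZ* in 2.26% against 0.149% of cells, and their part in the results was not tested. The 5 endothelial markers summed to 3.68, 2.97 and 4.21 rpm. The fibroblast markers summed to 190.1, 3989 and 2681 rpm, a sum carried by *COL3A1* (138, 3143 and 1645 rpm), while *COL1A1* was lower in ASPN/CILP+ than in other cells (10.8, 236 and 646 rpm), and their part in the results that follow was not tested.

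Of the 4 complement genes, *C1S*, *CD55* and *SERPING1* were lower in notochordal cells than in other cells by 2-fold or more, and *CFI* was higher by 2-fold or more. The pooled level of *C1S* was 11.3-fold lower, that of *CD55* 7.94-fold lower and that of *SERPING1* 2.51-fold lower, while that of *CFI* was 2.5-fold higher. ASPN/CILP+ cells did not reach a 2-fold difference from other cells for any of the 4 genes. A level is the reads of a gene over all reads of a set of cells, in rpm, and a difference of 2-fold or more is a limit of size and not a test, since there was 1 library and cells are not replicates. Among the 9931 genes with a read in at least 10% of the cells of either group, 11.6% were lower and 24.9% were higher in notochordal cells by this limit. The lower share of the members (3 of 4) is thus far from that of all genes and the higher share (1 of 4) is like it. With only 4 genes, chosen with earlier results of these data known, this contrast is a description and not independent support. The median log2 ratio of all 9931 genes was 0.32.

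**Figure D1:**
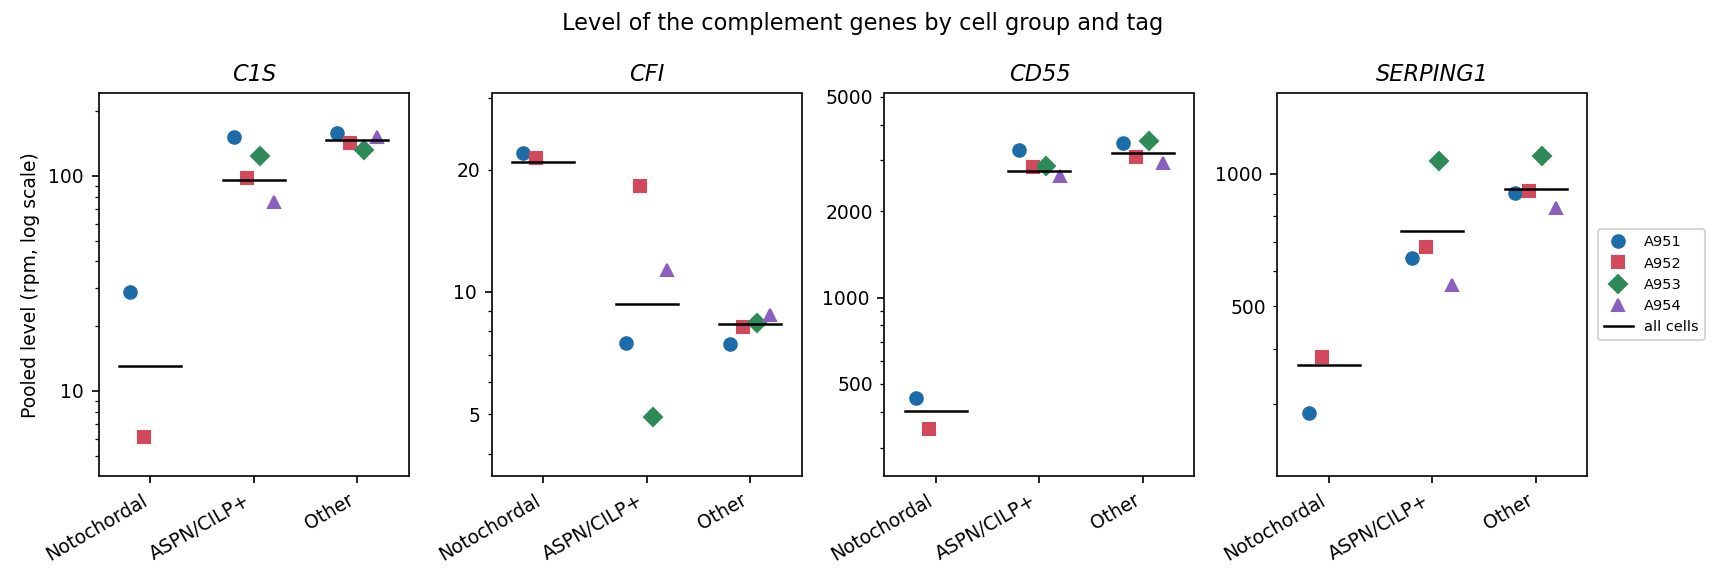
Pooled level in rpm (log scale) of *C1S*, *CFI*, *CD55* and *SERPING1* in notochordal, ASPN/CILP+ and other cells, with 1 symbol for each tag with at least 20 cells of the group and a bar for all cells of the group. *C1S*, *CD55* and *SERPING1* of the 2 notochordal tags lie below all symbols of other cells, and *CFI* lies above them.

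*C1S*, the protease that opens the classical pathway, was at 158, 142, 132 and 152 rpm in the other cells of A951 to A954. In notochordal cells it was at 28.8 rpm in A951 and 6.14 rpm in A952. The few notochordal cells of A953 (n = 5) and A954 (n = 2) gave 85.5 and 0 rpm. The 2 tags with enough cells lay below every tag of other cells, and the notochordal pool was at 13 rpm (95% exact Poisson interval 12.2 to 13.9) against 146 rpm (146 to 147). These intervals, like all that follow, cover counting error only, since the reads were counted without molecular identifiers and include PCR copies. The log2 ratio was −3.49, with −2.46 within A951 and −4.53 within A952, and 1.82% of the 9931 genes had a lower one.

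The reads of *C1S* in notochordal cells came from very few cells. A single cell of A951 held 270 of the 860 notochordal reads, or 31.4%, and 76.9% of those of its tag, and the 2 cells with the most held at least as many as all the rest together. The size of the difference therefore depended on single cells and tags: the log2 ratio was −4.78 without the highest 1% of cells of each group and −1.99 (3.98-fold) without A952. At least 1 read of *C1S* was found in 43.9% of notochordal cells (95% exact Clopper-Pearson interval 38.3 to 49.6) and in 72.8% of other cells (71.5 to 74.0), but 5 or more reads in only 3.23% (1.56 to 5.85) against 48.8% (47.3 to 50.2). Positive notochordal cells had a median of 1 read. For scale, *SRGN* was read in 22.3%, *C3orf49* in 32.2% and *CDH2* in 17.1% of other cells, again with a median of 1 read in positive cells. Whether these are stray reads or come from notochordal cells that the rule missed was not tested. The part of stray reads in the share for *C1S* was not tested either. After thinning to 50000 reads per cell, *C1S* was found in 17.7% of notochordal, 51.5% of ASPN/CILP+ and 58.6% of other cells (299, 648 and 4499 cells deep enough).

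*SERPING1*, the inhibitor of the C1 proteases, showed a smaller difference of the same direction. It was at 905, 911, 1094 and 835 rpm in the other cells of A951 to A954. In notochordal cells it was at 285 rpm in A951 and 382 rpm in A952, below each of those, and at 485 and 183 rpm in the few cells of A953 and A954. The pools were at 367 rpm (363 to 372) and 923 rpm (921 to 925), a log2 ratio of −1.33, with −1.66 in A951 and −1.25 in A952. Unlike *C1S*, it was read in nearly all cells, with at least 1 read in 95.5% of notochordal and 97.5% of other cells and 5 or more reads in 74.2% and 89.7%. Single cells of the 2 groups overlapped widely: the median notochordal cell was at 177 rpm and the median other cell at 684 rpm, and 17.7% of notochordal cells were above the latter.

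*CD55*, the membrane protein that dismantles C3 convertases, showed a difference in pooled level of like size in both main notochordal tags. In other cells it was at 3448, 3091, 3518 and 2929 rpm in A951 to A954. In notochordal cells it was at 448 rpm in A951 and 348 rpm in A952, and at 1404 and 22.8 rpm in the 5 and 2 cells of A953 and A954. Neither A951 nor A952 of the notochordal cells reached any tag of other cells. The pools were at 402 rpm (397 to 407) and 3192 rpm (3188 to 3195), a log2 ratio of −2.99, and both main tags were close to it, at −2.94 and −3.15. Of the 9931 genes, 2.63% had a lower one. A read was found in 98.7% of notochordal and 99.8% of other cells, and 5 or more reads in 88.7% and 96.4% (77.6% and 97.3% in A951). The median cell was at 106 rpm in the notochordal group and 1691 rpm in the other group, 16.0-fold apart, and only 3.87% of notochordal cells were above the median of other cells. Within tags the medians were less alike than the pools, 24.3-fold apart in A951 and 12.15-fold in A952. In A951 a single cell held 24.3% of the notochordal reads of *CD55*.

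**Figure D2:**
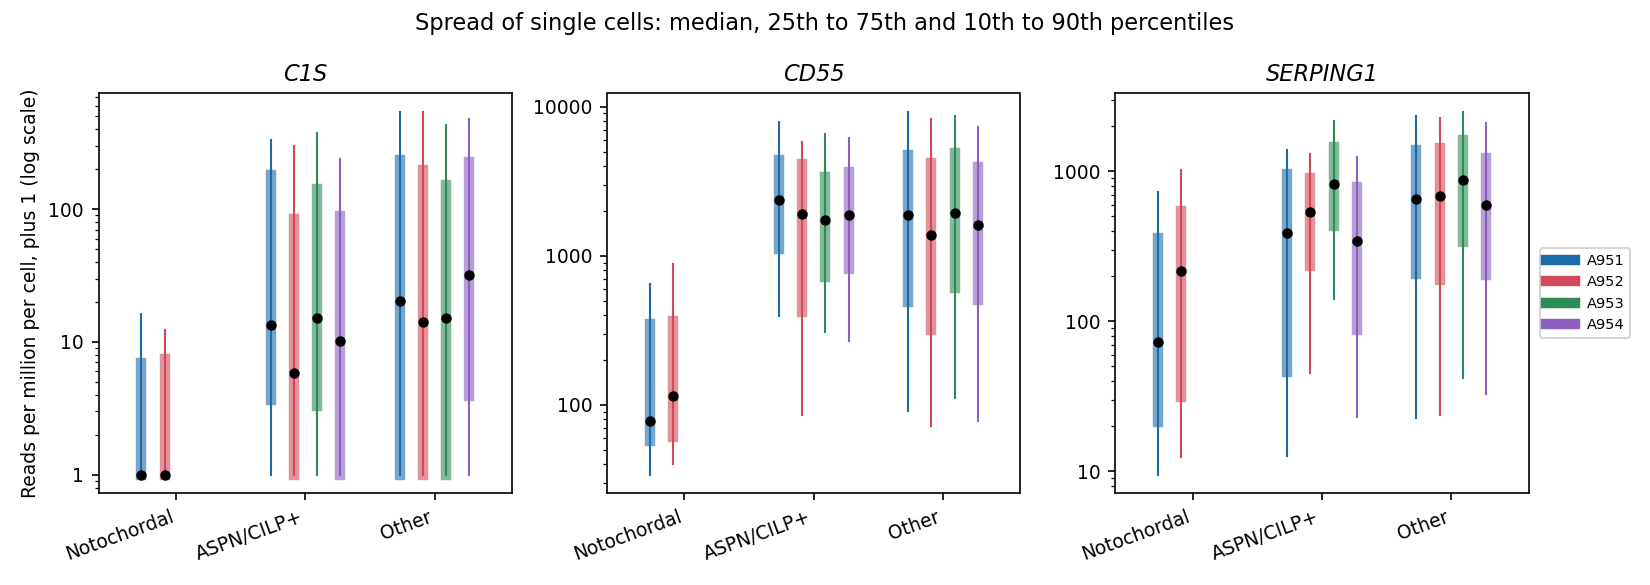
Level in single cells (rpm plus 1, log scale) of *C1S*, *CD55* and *SERPING1* by cell group and tag. Points are medians, thick bars run from the 25th to the 75th and thin lines from the 10th to the 90th percentile, and notochordal cells of A953 and A954 are not drawn (5 and 2 cells). The notochordal medians lie below those of other cells in both tags for each gene, at 0 rpm for *C1S*, and *SERPING1* overlaps most between groups.

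*CFI*, the protease that inactivates C3b, went the opposite way from a low level. It was at 7.44, 8.21, 8.39 and 8.78 rpm in the other cells of A951 to A954. In notochordal cells it was at 22.0 rpm in A951 and 21.3 rpm in A952, and at 7.05 and 0 rpm in the 5 and 2 cells of A953 and A954. The 2 main tags lay above all tags of other cells, and the log2 ratio of the pools was 1.32, with 1.56 and 1.38 within the tags. Since 24.9% of all genes were higher in notochordal cells by 2-fold or more, and 17% in each of the 2 tags, *CFI* was 1 of many, and 17.4% of the genes had a higher ratio.

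Few cells carried most of the *CFI* reads in every group. In notochordal cells 14 of 310 (4.52%; 3 in A951 and 11 in A952) had 100 or more rpm and held 71.0% of the reads. In other cells 124 of 4683 (2.65%) did so and held 71.9%, and in ASPN/CILP+ cells 21 of 660 (3.18%) held 67.7%. A read was found in 22.3% (17.8 to 27.3), 13.5% (12.5 to 14.5) and 16.2% (13.5 to 19.2) of notochordal, other and ASPN/CILP+ cells. With 5 or more reads the shares were 12.9%, 5.02% and 6.52%, and after thinning 15.7%, 7.13% and 6.94%.

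All 4 genes thus differed by 2-fold or more within both main notochordal tags, 3 lower and 1 higher, against 9.21% of all genes lower and 17% higher in each of the 2 tags. The genes were also counted together within single cells, at 5 or more reads each. Of notochordal cells, 59.4% carried 2 of the 4 genes and 12.6% carried 3. Of other cells, 42.5% carried 2 and 45.4% carried 3, and of ASPN/CILP+ cells 44.7% and 43.9%. None of the 4 was carried by 6.45% of notochordal cells, 0.982% of other cells and 0% of ASPN/CILP+ cells, where 0 of 660 allows a share of up to 0.455% (3 cells of the total). Depth also differed between the groups, and its part in these shares was not tested. The median notochordal cell had 186370 reads and 4061 genes, the median ASPN/CILP+ cell 271695 and 4540.5, and the median other cell 191905 and 3722.

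**Figure D3:**
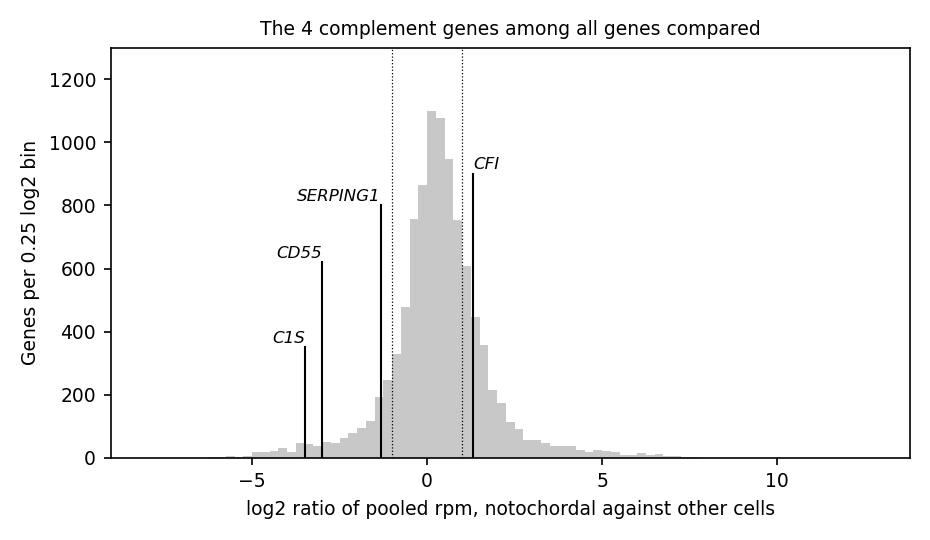
Number of genes (vertical axis) by log2 ratio of pooled rpm between notochordal and other cells (horizontal axis, bins of 0.25) for the 9931 genes compared, with vertical lines at the 4 complement genes and dotted lines at 2-fold. *C1S* and *CD55* lie in the far lower tail, *SERPING1* just past the lower limit and *CFI* just past the upper one.

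In ASPN/CILP+ cells 0 of the 4 genes differed from other cells by 2-fold or more, where 3.98% of 10053 genes were lower and 1.69% higher by that limit, and 0.895% and 0.159% in each of the 4 tags. *C1S* was the most different, at 96.2 rpm (94.8 to 97.5) against 146 rpm, 1.52-fold lower. Its levels in A951 to A954 were 151, 97.3, 124 and 75.3 rpm, and they overlapped with those of other cells. The log2 ratio within tags ran from −1.01 in A954 to −0.06 in A951, and that of the pools was −0.21 without A954 and −0.88 without A953. No notochordal tag with 20 or more cells reached the lowest of these 4 levels.

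*SERPING1* was at 644, 683, 1069 and 558 rpm in the ASPN/CILP+ cells of A951 to A954, a range that overlaps with other cells. The log2 ratio of the pools was −0.32, and it was −0.01 without A954 and −0.60 without A953. *CD55* was at 3265, 2852, 2872 and 2658 rpm, a log2 ratio of −0.21, below other cells in each of the 4 tags but by at most 0.29. *CFI* was at 7.49, 18.2, 4.94 and 11.3 rpm, with log2 ratios from −0.77 to 1.15 and no common direction. In order of level, notochordal cells were thus last for *C1S*, *SERPING1* and *CD55* and first for *CFI*, and ASPN/CILP+ and other cells overlapped over tags for all 4.

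The limits that define the groups can be judged from the cells next to them. Cells with 1 to 4 reads of the rarer of *KRT19* and *TBXT* (98 cells) had *C1S* at 117 rpm, *CFI* at 8.72 rpm, *CD55* at 2752 rpm and *SERPING1* at 723 rpm, all nearer to other cells. Those with 5 to 20 reads (41 cells) had 5.70, 19.6, 434 and 293 rpm of the same genes, and those with more (269 cells) 13.8, 21.0, 398 and 375 rpm. For each gene the step from 4 to 5 reads was larger than that from 20 reads upward. For the ASPN/CILP rule, cells at 50 to 100 rpm (104 cells) had *C1S* at 156, *CFI* at 3.51, *CD55* at 3578 and *SERPING1* at 886 rpm. Cells at 100 to 200 rpm (145 cells) had 98.9, 7.23, 3256 and 786 rpm, and cells above that (515 cells) 95.3, 10.0, 2615 and 725 rpm.

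The wider complement system was described from a list of 58 genes, of which 37 were in the table and the other 21 were not analysed here. In these cells 11 reached 10 rpm in at least 1 group: 1 of 6 recognition molecules (*COLEC12*), 5 of 6 proteases (*C1S*, *C1RL*, *MASP1*, *C2* and *CFI*), 1 of 6 genes of the C3 family and terminal components (*C5*), 2 of 7 fluid-phase regulators (*SERPING1* and *CLU*), 2 of 4 membrane regulators (*CD55* and *CD46*) and 0 of 8 receptors. Of the 37, only 13 had a read in 10% of the notochordal or other cells. Of these, 7 were lower and 3 higher in notochordal cells by 2-fold or more (against the 11.6% and 24.9% of all genes), with a median log2 ratio of −1.33 beside 0.32 for all genes. Of the 3 higher genes (*CFI*, *C5* and *C6*), *CFI* passed 2-fold in both main tags, while the log2 ratio of *C5* was 0.91 in A951 and that of *C6* 0.43 in A952. Of the 7 lower genes, *CLU* fell short of 2-fold in A951, at a log2 ratio of −0.99, and the rest passed it in both tags. The 4 named genes are among the 13, and *MASP1*, 1 of the 7, passed this limit through other cells alone (14.7% against 9.03% of notochordal cells), so its direction is partly set by the limit.

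Among the recognition molecules, *COLEC12*, a scavenger receptor with a collectin domain, was at 28.8 rpm in notochordal cells and 224 rpm in other cells. It was lower within both tags, at 39.9 against 196 rpm in A951 and 15.7 against 199 rpm in A952, and 1 cell held 388 of its 487 notochordal reads in A951. Among the proteases, *MASP1*, which acts in the lectin pathway, was at 1.83 against 13.3 rpm. *C2*, the protease part of the classical C3 convertase, was at 3.38 against 10.8 rpm. *C1RL*, a relative of *C1R*, differed by less than 2-fold, at 36.0 against 46.8 rpm.

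*CLU*, or clusterin, which binds the terminal complex in plasma, was read in every notochordal and every other cell. It was at 3857 rpm in A951 and 3182 rpm in A952 of notochordal cells, below the 7656 and 7699 rpm of the other cells of these tags. The log2 ratio of the pools was −1.46, beyond the −0.99 within A951 and the −1.27 within A952. *CD46*, a membrane cofactor for factor I, was at 187 and 169 rpm in the 2 notochordal tags and 198 and 192 rpm in the other cells of the same tags. The 2 membrane regulators thus differed from each other, with log2 ratios of −0.07 for *CD46* and −2.99 for *CD55*. *C5*, the precursor of the terminal pathway, was at 10.6 against 3.43 rpm, and 3 notochordal cells held at least as many of its reads as all the rest together.

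**Figure D4:**
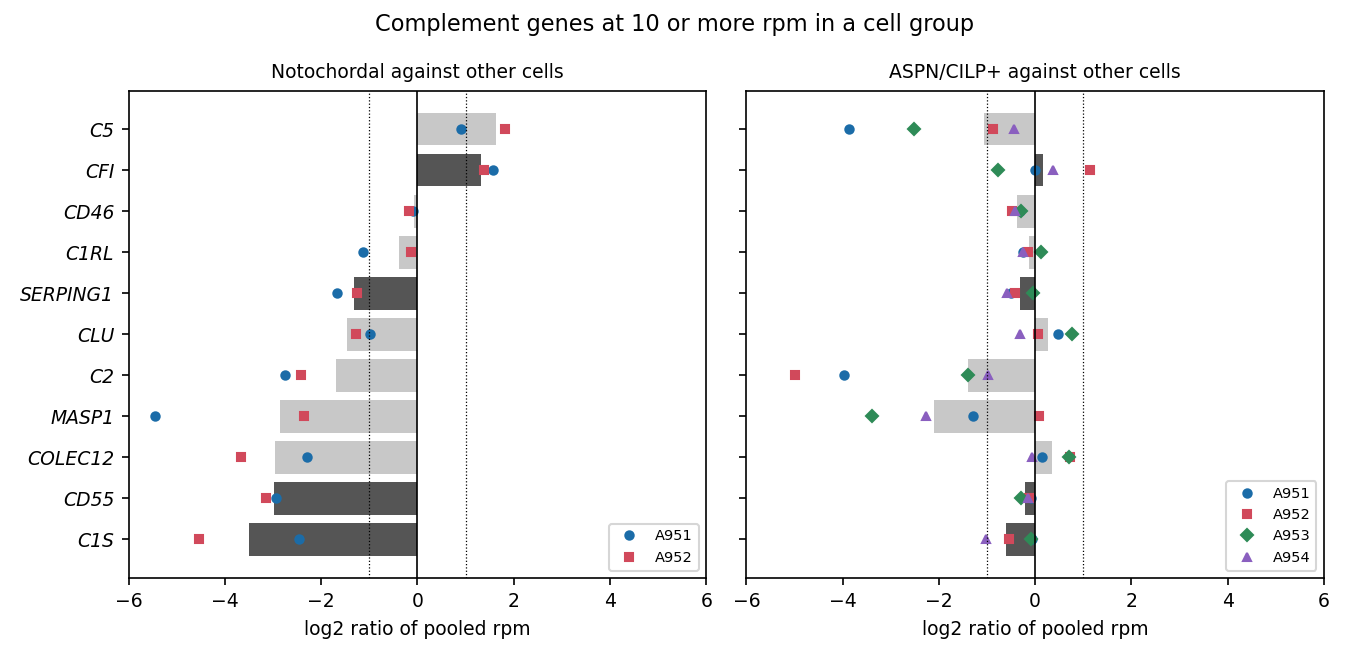
Log2 ratio of pooled rpm against other cells for the 11 complement genes at 10 or more rpm in a group, in notochordal cells (left) and ASPN/CILP+ cells (right). Bars are pools, dark for *C1S*, *CFI*, *CD55* and *SERPING1*, symbols are tags with at least 20 cells and dotted lines mark 2-fold. The notochordal panel spreads from *C1S* at −3.49 to *C5* at 1.62, while on the right the larger ratios are those of genes with few reads.

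In ASPN/CILP+ cells 16 of the 37 genes had enough cells with a read, and 3 were lower and 0 higher by 2-fold or more (against 3.98% and 1.69% of all genes), with a median log2 ratio of −0.35 beside 0.00 for all genes. The 3 were *MASP1* (3.11 against 13.3 rpm), *C2* (4.14 against 10.8 rpm) and *C5* (1.64 against 3.43 rpm), all from few cells. *MASP1* was not lower in A952, where it was at 11.8 against 11.2 rpm, but 1 cell held 121 of the 125 ASPN/CILP+ reads there. *COLEC12* and *CLU* were at 287 and 11352 rpm in these cells, within 2-fold of other cells.

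Complement genes were also set beside 2 response lists. Of 11 inflammatory genes with enough cells, 7 were lower and 0 higher in notochordal cells by 2-fold or more, with a median log2 ratio of −2.93, beside 11.6% lower and 24.9% higher among all genes. Among them *SOD2*, a mitochondrial enzyme induced by cytokines, was at 105 against 1225 rpm and *CCL2*, a chemokine, at 3.66 against 130 rpm. Of 7 interferon response genes, 2 were higher and 1 lower, shares near those of all genes, with a median of 0.34 beside 0.32 for all genes. *ISG15*, 1 of the 2 higher, had a read in 10% of notochordal but 7.58% of other cells. It passed the limit of 10% through notochordal cells alone, so its direction is partly set by that limit. In ASPN/CILP+ cells 6 of 11 inflammatory genes and 1 of 7 interferon genes were lower and none of either list higher, beside 3.98% lower and 1.69% higher among all genes, although the members were within 2-fold. The part of either response in the complement levels was not tested.

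The complement genes varied within the groups as well. In notochordal cells with 5 or more reads of *SHH*, the hedgehog ligand (72 cells), *CD55* was at 463 rpm against 378 rpm in the 238 others, and *SERPING1* at 368 against 367 rpm. *CFI* was at 20.1 against 21.1 rpm and *C1S* at 18.3 against 10.9 rpm. All were within 2-fold.

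In other cells ordered by genes detected and cut into 4 sets of nearly equal size, from fewest to most genes, *SERPING1* was at 1126, 1045, 966 and 815 rpm and *C1S* at 174, 160.2, 151 and 134 rpm. *CD55* did not follow this order, at 3049, 3332, 3274 and 3124 rpm, nor did *CFI*, at 11.6, 7.26, 7.46 and 8.60 rpm. The share of cells with a read of *C1S* went the other way from its level, from 49% to 90.5%.

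Among cells that were not notochordal, the 45 with 100 or more rpm of *CXCL1* had *CD55* at 4345 against 3112 rpm in the rest, without ratios within tags. The 201 with 100 or more rpm of *SFRP2* had *SERPING1* at 1212 against 880.1 rpm and *C1S* at 180 against 137 rpm, higher in each of the 4 tags but by less than 2-fold in the pools, and *CFI* at 3.71 against 8.72 rpm, with no common direction over tags. The 5293 with 100 or more rpm of *PRG4* had *CD55* at 3129 against 1728 rpm in the other 50, also without ratios within tags. Those 50 cells had fewer genes detected, with a median of 2484.5 against 3827, and the part of this in the difference was not tested. When split by *HMOX1* (1552 against 3791 cells), each of the 4 genes differed by at most 1.13-fold.

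The genes most like each complement gene were sought by Pearson's r of log2(rpm + 10) over the 5653 cells among 9346 genes, which is a description of cells that share a library and differ in depth. *CD55* was most like *INHBA* (r = 0.42), which encodes a subunit of activins, followed by *NFATC2* (0.35) and *MTHFD2* (0.34). *SERPING1* was most like *CLU* (0.36), *FBLN7* (0.35) and *SOD3* (0.34), and *C1S* was most like *FBLN7* (0.31), *WIF1* (0.27) and *CHI3L1* (0.26). *CFI* had no r above 0.09 (*KLF10*). Over the 4683 other cells alone, *INHBA* was again first for *CD55* (0.36), *CLU* for *SERPING1* (0.35) and *FBLN7* for *C1S* (0.25), whereas *MTHFD2* and *WIF1* were no longer among the first 3 and *LSP1* took the place of *KLF10* for *CFI*. *C1S* and *SERPING1*, the protease and its inhibitor, had an r of 0.26 with each other (0.23 in other cells).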

How the data were processed

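Male cynomolgus AC and NP cells were measured in 1 pooled TAS-seq cDNA library, and the matching tag library held no gene expression. The authors aligned reads with HISAT2 2.2.1, assigned them to whole genes with featureCounts 2.0.2 on the forward strand, allowed reads with more than 1 position or gene, and deposited the raw counts, as whole reads, without normalization or molecular identifiers. The genome build is not given in the sources used here. Reads on near-identical or overlapping genes can be shared. Another matrix with 1358 cell columns was not used.

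Cells with a single tag, 200 to 9000 genes and under 5% mitochondrial reads were kept; 42 doublets and 7 untagged cells were left out by the tag calls in the column names. Levels are pooled rpm (reads per 1000000 reads). Log2 ratios were called at 2-fold among all genes with a read in at least 10% of the cells of either group, with groups under 3 reads set to 3. No test was made. Intervals of 95% are exact Poisson for reads and exact Clopper-Pearson for shares, and a share of 0 is given with the limit of 3 cells of the total. Cells were thinned to 50000 reads for shares. Tags with fewer than 20 cells of a group were not compared. Python 3.11.15, numpy 2.4.6, scipy 1.17.1, pandas 2.3.3 and matplotlib 3.10.9 were used, and the calculations were tested on simulated data.

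The genes named were the 9 members, complement genes at 10 or more rpm in a group, and the 3 genes most like each member. Members and lists were chosen with earlier results of these data known. Of the marker lists, the 3 red cell genes were not in the table. Alternatives were other limits on cells and groups, other scalings, means over cells or tags, thinning, detection from 5 reads, a floor of 10 reads, the highest 1% of cells left out, and each tag left out. Likeness over other cells, ratios within A951 and A952, and the splits by *SHH* and by genes detected were added after seeing the data.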

Additional observations from a re-analysis of the deposited data

How the results depend on the processing

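Over 18 alternatives, the log2 ratio between notochordal and other cells ran from −4.78 to −1.46 for *C1S*, −3.16 to −1.28 for *CD55*, −1.56 to −0.87 for *SERPING1* and 0.95 to 1.48 for *CFI*, and none changed sign. The smallest differences came from grouping on 1 or more *KRT19* and *TBXT* reads (408 cells): there 2 members in place of 4 differed by 2-fold or more, 2 lower and 0 higher, as *SERPING1* was at −0.87 and *CFI* at 0.95. This rule takes in the 98 cells with 1 to 4 reads described above. With each tag left out the counts stayed at 4 (3 lower, 1 higher), and *C1S* ran from −3.93 to −1.99, *CD55* from −3.08 to −2.45, *SERPING1* from −1.56 to −1.26 and *CFI* from 1.2 to 1.38. For ASPN/CILP+ cells against other cells the count was 0 under each of 17 alternatives, with *CFI* from −0.25 to 0.47. Scaling to the median ratio of 2263 widely read genes, or without mitochondrial and ribosomal protein genes, moved all notochordal ratios by at most 0.05. Scaling to the median log2 ratio of all 9931 genes compared (0.32) was not tried. Thinning to 50000 reads moved 10 of the 12 shares of cells past their intervals. With 1 library, animal, tissue and library cannot be told apart, and 5 and 2 notochordal cells in A953 and A954 leave the notochordal levels to 2 tags. No paired test was made, because the labels tie no tag to a tissue or animal and only 2 tags held enough notochordal cells. The ratios within tags stand beside those of the pools.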

Other observations

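Terminal components and recognition molecules outside the naming rule were chosen after their values were seen. *C6*, a subunit of the membrane attack complex, was at 34.9 rpm (31.7 to 38.4) in the notochordal cells of A951 and 0.954 rpm (0.706 to 1.26) in those of A952. In A951, 11 of the 67 notochordal cells had 5 or more reads of *C6*, and in A952 0 of the 236 did, which allows a share of up to 1.27% (3 cells of the total). Other cells were at 0.864 rpm in A951 and 0.706 rpm in A952. *COLEC10*, a collectin that can start the lectin pathway, was at 8.69 rpm in A951 and 4.44 rpm in A952 in notochordal cells, against 0.248 and 0.182 rpm in the other cells of the same tags. Its 335 notochordal reads came from 14 of 310 cells (4.52%, against 3.61% of other cells). With 5 or more reads the shares were 1.94% and 0.0214%, with 4 of the 67 notochordal cells of A951 and 2 of the 236 of A952. A single cell held 67 of the 106 reads in A951 and 1 cell 130 of the 228 in A952, so the size of these levels depends on few cells. In A953 and A954 the few notochordal cells had 3 and 1 reads of *C6* and 1 and 0 reads of *COLEC10*.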
